A study of Homo sapiens with 12 samples.

Results

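The basal and stress keratins described here are KRT5, KRT14 and KRT15, which mark the lowest layer of stratified epithelium, and KRT17, KRT6A, KRT6B, KRT6C and KRT16, which are made in wounded, inflamed or cultured epidermis. They were chosen by symbol, and all 8 were found among the 58735 genes of the count table and passed the filter on low counts that left 14920 genes for testing. Bulk RNA sequencing was done on 12 libraries of N/TERT-2G, an immortalised line of human skin keratinocytes. The cells had received a negative control siRNA or siRNA against ATF3, a transcription factor induced by stress, against the lipid carrier APOE, or against the epithelial chemokine CXCL14. There are 3 libraries in each of these 4 groups. All groups carry the immortalised background and the transfection itself: 100 pmol of siRNA per well of a 6-well plate with a lipid reagent, and fresh medium after 6 h. The siRNA sequences, the time of harvest and whether replicates were separate cultures are not given in the labels, so the p-values rest only on the spread among these libraries, which may be technical. The comparisons ask how transcripts of cultured keratinocytes differ after each knockdown, in a series about vulvar lichen sclerosus.

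Keratins build the intermediate filaments of epithelial cells and work as obligate pairs of an acidic type I and a basic type II protein. KRT14 pairs with KRT5 in basal keratinocytes, and KRT15 is a further type I keratin of that layer. After injury, epidermal cells switch on KRT6A, KRT6B and KRT6C, which are type II, with their type I partners KRT16 and KRT17, and these stay on in psoriasis and in most keratinocyte cultures. The filaments reach desmosomes and hemidesmosomes through linker proteins such as plectin and the plakins.

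The 4 type II members lie near each other on chromosome 12 and the 4 type I members on chromosome 17, all on the minus strand (hg38). On chromosome 12 the order is KRT6B (52446651 to 52452126), KRT6C (52468516 to 52473785), KRT6A (52487174 to 52493257) and KRT5 (52514575 to 52520687). On chromosome 17 it is KRT15 (41513743 to 41522529), KRT14 (41582279 to 41586921), KRT16 (41609778 to 41615899) and KRT17 (41619441 to 41624842). Among the members KRT16 and KRT17 are the closest neighbours, 3541 bases apart, and KRT15 and KRT14 the farthest, with 59749 bases between them. Genes outside the group were not looked for in these gaps.

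Sequence bears on how well the members can be told apart. The coding sequences of KRT6A, KRT6B and KRT6C are each 1692 bases long and differ at 51 of them, and the longest stretch without a difference spans 269 bases. Pairwise identity was 97.5% for KRT6A and KRT6B, 97.9% for KRT6A and KRT6C, and 98.5% for KRT6B and KRT6C. The 60 coding bases with the most differences within a single exon, positions 663 to 722 counted from the A of the start codon, lie in exon 2 of each gene. They are shown 5′ to 3′ in the sense of the transcript from GENCODE release 29, with the bases that are not the same in all 3 genes in capitals. The positions are chr12:52491555-52491614 for KRT6A, chr12:52450439-52450498 for KRT6B and chr12:52472099-52472158 for KRT6C, minus strand.
KRT6A: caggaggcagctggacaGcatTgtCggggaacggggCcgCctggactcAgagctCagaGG
KRT6B: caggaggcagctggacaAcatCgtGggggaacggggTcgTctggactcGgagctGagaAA
KRT6C: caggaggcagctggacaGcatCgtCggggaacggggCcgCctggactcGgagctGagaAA

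Of the 150-base stretches in the main transcript, 9.25% in KRT6A, 12.8% in KRT6B and 16.5% in KRT6C also occur in another gene's transcript. For KRT14 and KRT16 the shares were 0.595% and 0.736%, and for KRT5, KRT15 and KRT17 they were 0. At 50 bases the shares rise to 39.1% in KRT6A, 47.1% in KRT6B and 53.6% in KRT6C. KRT14 then shares 23.8%, KRT16 22.01% and KRT17 17.4%, against 3.99% in KRT5 and 0.725% in KRT15. How the counting treated reads that match several genes is not stated, so single values of the KRT6 genes are uncertain, and beside them a fit of their summed counts is given.

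Total counts per library ran from 16225691 to 22246755. The members took 2.98 to 3.34% of all counts in the control libraries, 3.88 to 4.15% with ATF3 siRNA, 4.70 to 5.08% with APOE siRNA and 2.20 to 2.27% with CXCL14 siRNA, and no groups overlapped. Levels are given in CPM, counts relative to the library's total after scaling of that total by TMM. In their own groups ATF3 fell from 40.4 to 43.0 CPM in the controls to 11.5 to 12.5 CPM, and APOE from 46, 59 and 51 counts to 2, 5 and 3. CXCL14 had 7, 6 and 11 counts in the controls and 1, 1 and 0 with its siRNA, and between 78 and 234 counts per library with APOE siRNA. The other targets also differed with CXCL14 siRNA. There ATF3 stood at 64.0, 71.5 and 69.2 CPM and APOE had 104, 106 and 141 counts, both above every control library. All 10 keratinocyte markers were present, TP63 at 155 to 416 CPM. PTPRC and CD3E of immune cells and TYR of melanocytes had 0 counts in every library, and the summed endothelial markers stayed at or below 0.435 CPM. The melanocyte genes PMEL and MLANA were counted in every library, at 0.664 to 2.11 CPM and 0.242 to 0.791 CPM. DCT and SOX10 stayed at or below 0.138 CPM. The fibroblast gene COL1A1 reached 13.3 to 87.0 CPM, while COL1A2, COL3A1, PDGFRB, DCN and LUM each stayed under 1 CPM, and the immune gene CD14 at 0.98 to 6.12 CPM.

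Levels can be compared between genes only per length, and for this the deposited FPKM, fragments scaled by gene length and library size, are used. In the control cells KRT14 stood highest at 3157 ± 246 FPKM (SD, n = 3), followed by KRT5 at 2705 ± 188, KRT6A at 2154 ± 74.2 and KRT17 at 1673 ± 119.7 FPKM. KRT6B (280 ± 7.32 FPKM), KRT16 (69.3 ± 10.02), KRT15 (19.5 ± 1.67) and KRT6C (9.59 ± 0.712) were far lower. Neighbours in this order did not overlap between their 3 control libraries. Of the stress keratins, KRT6A and KRT17 thus stood nearer to the basal pair than to KRT6B, KRT16 and KRT6C in the control cells.

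With ATF3 siRNA KRT14 led again at 3681 ± 178 FPKM, and KRT17 (3021 ± 216), KRT5 (2926 ± 112) and KRT6A (2785 ± 126) overlapped in their libraries. With APOE siRNA the order was KRT14 (4503 ± 202 FPKM), KRT5 (4087 ± 198), KRT17 (3402 ± 188) and KRT6A (3125 ± 108), of which KRT17 and KRT6A overlapped. With CXCL14 siRNA KRT5 led at 2048 ± 53.8 FPKM, ahead of KRT17 (1585 ± 95.1) and KRT14 (1549 ± 74.3), which overlapped, and KRT6A (1145 ± 10.7). KRT6B (41.0 ± 0.731 FPKM), KRT16 (34.4 ± 2.38), KRT15 (20.7 ± 0.934) and KRT6C (3.40 ± 0.494) held the last 4 places there too. The order depends on the gene length: rescaled to the main transcript, KRT5 (4586 ± 318) and KRT14 (4333 ± 338) overlapped in the controls, and KRT17 (3452 ± 247) stood above KRT6A (2731 ± 94.1). On that scale KRT17 led with ATF3 siRNA (6232 ± 446), and with APOE siRNA KRT17 (7019 ± 388) and KRT5 (6931 ± 335) overlapped above KRT14 (6179.9 ± 277), with KRT16 (462 ± 68.4) above KRT6B (417 ± 13.6) on average. With CXCL14 siRNA KRT15 (61.1 ± 2.76) then stood above KRT16 (51.8 ± 3.59) and KRT6B (41.0 ± 0.731).

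**Figure D1:**
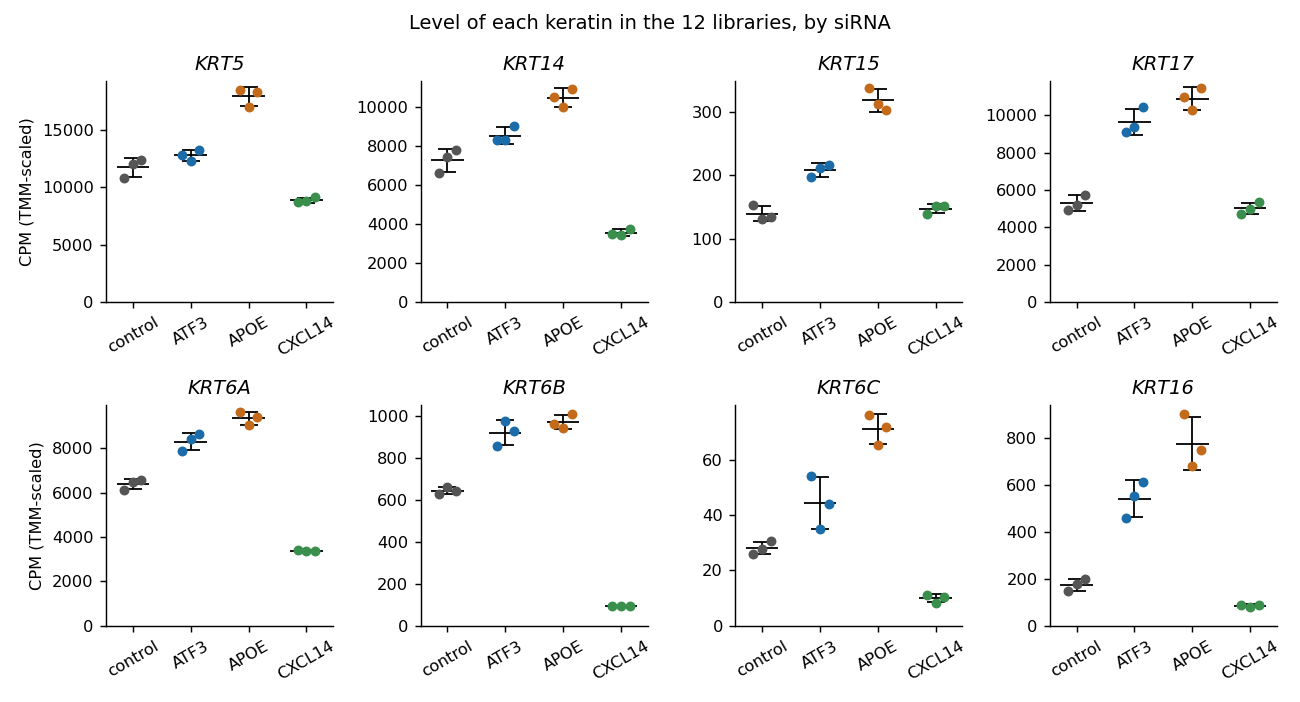
Level of each of the 8 keratins in CPM scaled by TMM (vertical axis from 0), with a point for each of the 3 libraries of a siRNA group, a bar at the mean and an error bar of 1 SD. All 8 are highest on average with APOE siRNA, and KRT6B falls from a control mean of 646 CPM to 94.5 CPM with CXCL14 siRNA.

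Within a gene, levels are compared as CPM scaled by TMM, and the words rose and fell are kept for genes with an edgeR adjusted p under 0.05. With ATF3 siRNA 7 of the 8 members rose against the control and 0 fell, where 11.2% of all tested genes rose and 9.14% fell. With APOE siRNA all 8 rose, where 22.3% of all genes rose and 22.5% fell. Of the 8 members 6 fell and 0 rose with CXCL14 siRNA, where 27.4% of all genes rose and 28.4% fell. The members' median log2 fold change was 0.55 with ATF3 siRNA, 0.82 with APOE siRNA and -0.96 with CXCL14 siRNA, and that of all tested genes was 0.00, 0.01 and 0.01. The 3 comparisons share the control libraries and are not independent of each other. Whether the changes follow from loss of the target of each siRNA was not tested. In bulk RNA, fewer cells that make a keratin and less of its RNA per cell cannot be told apart.

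Of the basal type II keratin KRT5, the control libraries held 10795, 12025 and 12431 CPM. The ATF3 siRNA libraries, at 12809, 12287 and 13265 CPM, overlapped them, and the difference did not pass (log2 fold change 0.12 ± 0.06 SE, edgeR adjusted p = 0.206). All 3 APOE siRNA libraries, at 18517, 16981 and 18305 CPM, lay above every control library (0.61 ± 0.07, adjusted p = 1.42e-06 in edgeR). The CXCL14 siRNA libraries lay below them at 8694, 8817 and 9143 CPM (-0.40 ± 0.06, edgeR adjusted p = 6.16e-05). This was the smallest of the 6 falls with that siRNA.

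KRT14, the type I partner of KRT5, stood at 6639, 7429 and 7801 CPM in the controls. With ATF3 siRNA it stood at 8309, 8305 and 9032 CPM, above all control libraries, and its rise was the smallest called one (0.23 ± 0.07, edgeR adjusted p = 0.0281). The call did not hold without control library 1 (0.17, adjusted p = 0.128), control library 2 (0.24, 0.0683) or ATF3 siRNA library 3 (0.19, 0.0948), in a fit of only these 2 groups (0.0842) and with limma on log2(FPKM + 0.1) (0.0677). With APOE siRNA the libraries reached 10539.9, 10014 and 10949.9 CPM (0.53 ± 0.07, edgeR adjusted p = 1.37e-05). The CXCL14 siRNA libraries held 3497, 3451 and 3763 CPM, well under the controls (-1.03 ± 0.07, edgeR adjusted p = 3.81e-09).

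KRT15, the less abundant type I keratin of basal cells, moved differently from KRT14. The controls held 153, 131 and 135 CPM, and the CXCL14 siRNA libraries 139.8, 151 and 152 CPM. These overlapped, and the difference did not pass (0.08 ± 0.07, edgeR adjusted p = 0.364), so KRT15 was the only basal member not called lower with that siRNA. With ATF3 siRNA KRT15 rose to 197, 212 and 217 CPM (0.58 ± 0.07, edgeR adjusted p = 3.83e-05). With APOE siRNA it rose to 338, 313 and 304 CPM, above the libraries of every other group (1.19 ± 0.07, edgeR adjusted p = 3.08e-09).

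KRT17, a type I stress keratin, had control levels of 4947, 5220.4 and 5738 CPM. ATF3 siRNA libraries held 9102, 9360.2 and 10419 CPM (0.86 ± 0.07, edgeR adjusted p = 1.05e-06), and APOE siRNA libraries 10955, 10256 and 11449 CPM (1.04 ± 0.08, adjusted p = 2.01e-08). Both groups lay above all controls and overlapped each other. With CXCL14 siRNA the levels of 4727, 4986 and 5329 CPM overlapped the controls, and the difference did not pass (-0.08 ± 0.07, edgeR adjusted p = 0.377). KRT17 was the only stress keratin not called lower in those libraries.

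KRT16, the other type I stress keratin and a partner of KRT6, showed the largest rises of the 8. Its control libraries held 147, 177 and 198 CPM. With ATF3 siRNA they held 460.4, 552 and 614 CPM, a 3.12-fold rise (1.64 ± 0.12, edgeR adjusted p = 2.51e-07). With APOE siRNA they held 900.3, 682 and 746 CPM, a 4.47-fold rise (2.16 ± 0.13, edgeR adjusted p = 1.91e-09), and no library overlapped the ATF3 siRNA group. With CXCL14 siRNA KRT16 fell to 88.6, 79.5 and 90.2 CPM, 2.02-fold lower (-1.01 ± 0.12, edgeR adjusted p = 3.42e-06).

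KRT6A, the most abundant of the 3 KRT6 genes, stood at 6113, 6487 and 6552 CPM in the controls. It rose to 7876, 8407 and 8630.4 CPM with ATF3 siRNA (0.38 ± 0.06, edgeR adjusted p = 0.000242) and to 9628, 9038 and 9397 CPM with APOE siRNA (0.55 ± 0.06, adjusted p = 1.13e-06). With CXCL14 siRNA it fell to 3417, 3367 and 3382 CPM (-0.91 ± 0.06, edgeR adjusted p = 1.64e-09). No pair of these 4 groups overlapped.

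KRT6B, its close paralog, stood at 629, 663 and 646 CPM in the controls and rose to 859.7, 979 and 928 CPM with ATF3 siRNA (0.51 ± 0.06, edgeR adjusted p = 1.94e-05). With APOE siRNA it rose to 966, 946 and 1009.9 CPM (0.59 ± 0.06, edgeR adjusted p = 7.90e-07), overlapping the ATF3 siRNA libraries. With CXCL14 siRNA its 3 libraries held only 92.4, 95.4 and 95.7 CPM. This 6.83-fold fall (-2.77 ± 0.06, edgeR adjusted p = 1.13e-13) was the largest change of any member with any siRNA.

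KRT6C, the least abundant member, had 432, 458 and 492 counts in the controls, or 26.1, 27.8 and 30.5 CPM. With ATF3 siRNA its libraries were spread widely, at 54.0, 35.1 and 44.0 CPM, but lay above all controls (0.66 ± 0.13, edgeR adjusted p = 0.00203). With APOE siRNA it reached 76.0, 65.4 and 71.8 CPM (1.34 ± 0.13, edgeR adjusted p = 4.87e-07). With CXCL14 siRNA it fell to 11.01, 8.33 and 10.5 CPM (-1.49 ± 0.14, edgeR adjusted p = 2.27e-07).

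**Figure D2:**
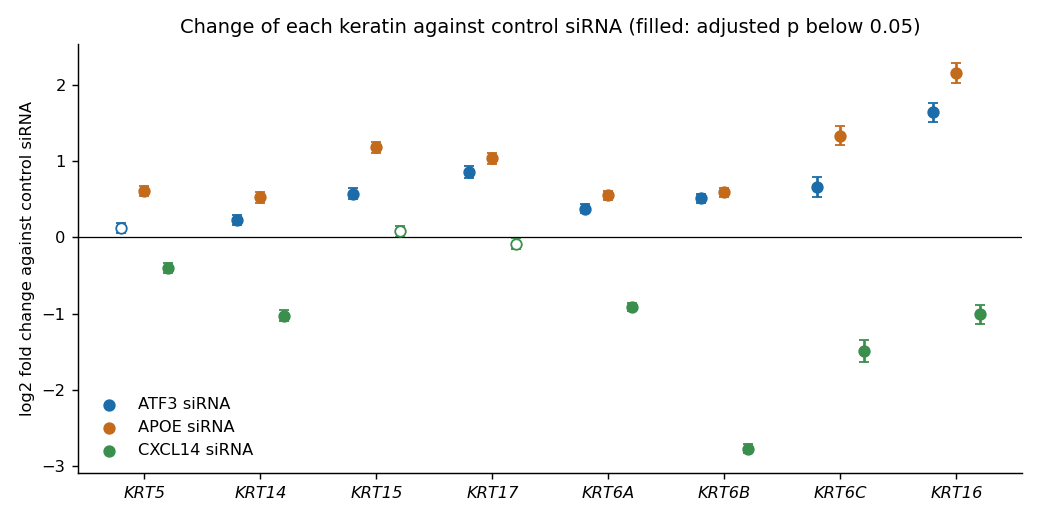
Log2 fold change of each keratin against the control siRNA (vertical axis) in an edgeR fit of 12 libraries, with error bars of 1 SE, for ATF3, APOE and CXCL14 siRNA. Filled points have an adjusted p under 0.05 and open points do not: KRT5 with ATF3 siRNA and KRT15 and KRT17 with CXCL14 siRNA are open.

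With the counts of KRT6A, KRT6B and KRT6C added up, so that reads exchanged between them cannot matter, the sum rose with ATF3 siRNA (0.39 ± 0.06, edgeR adjusted p = 0.000167) and APOE siRNA (0.56 ± 0.06, 9.11e-07). It fell with CXCL14 siRNA (-1.01 ± 0.06, edgeR adjusted p = 5.02e-10). KRT6A supplied most of this sum, so it stands near the value of KRT6A and far from the -2.77 of KRT6B and the 1.34 of KRT6C. The ratio of KRT6B to KRT6A in FPKM was 0.130 ± 0.00303 (SD, n = 3) in the controls, 0.143 ± 0.00611 with ATF3 siRNA and 0.134 ± 0.00462 with APOE siRNA. With CXCL14 siRNA it was 0.0358 ± 0.00093, with no library near those of the other groups. The ratio of KRT6C to KRT6A was 0.00445 ± 0.000217 in the controls, 0.00543 ± 0.00137 with ATF3 siRNA, 0.00767 ± 0.000337 with APOE siRNA and 0.00297 ± 0.000409 with CXCL14 siRNA. As counted, the 3 KRT6 genes therefore did not keep one proportion to each other over the groups, with the uncertainty of their single values given above. Reads left out for matching several genes, if any, are missing from these ratios and from the sum. These ratios are descriptions, without a test.

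Other proportions also differed between the groups, again without a test. The share of the 5 stress keratins in the summed FPKM of the 8 was 41.6% ± 0.699 (SD, n = 3) in the controls, 49.2% ± 0.951 with ATF3 siRNA, 45.7% ± 0.117 with APOE siRNA and 43.7% ± 0.256 with CXCL14 siRNA. It was thus above every control library in all 3 knockdown groups, although the summed level was higher than in the controls in 2 of them and lower in the other. With CXCL14 siRNA this rested on KRT17 alone, at 24.6% ± 0.733 of the sum against 16.6% ± 0.438 in the controls. KRT6A (17.8% ± 0.649 against 21.4% ± 0.656), KRT6B (0.638% ± 0.0150 against 2.78% ± 0.147), KRT16 (0.536% ± 0.0324 against 0.686% ± 0.0578) and KRT6C (0.0529% ± 0.00761 against 0.0953% ± 0.00230) each held a smaller share there. Summed over the 8, the level was 10067 ± 629 FPKM in the controls, 13069 ± 611 with ATF3 siRNA, 15909 ± 700.2 with APOE siRNA and 6427 ± 216 with CXCL14 siRNA.

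Within the basal pair, the ratio of KRT14 to KRT5 in FPKM was 1.17 ± 0.0123 in the controls and 0.756 ± 0.0189 with CXCL14 siRNA, where KRT14 fell more than KRT5. It was 1.26 ± 0.0326 with ATF3 siRNA and 1.10 ± 0.0281 with APOE siRNA, and neither group overlapped the controls. The ratio of KRT17 to KRT14 was 0.530 ± 0.0162 in the controls and 1.02 ± 0.0348 with CXCL14 siRNA, where KRT14 fell and KRT17 did not pass. With ATF3 siRNA this ratio was 0.820 ± 0.0212 and with APOE siRNA 0.755 ± 0.00805. The ratio of KRT16 to KRT17 was 0.0413 ± 0.00333 in the controls, 0.0710 ± 0.00609 with ATF3 siRNA, 0.0901 ± 0.0120 with APOE siRNA and 0.0218 ± 0.00181 with CXCL14 siRNA. The type I members together held 0.955 ± 0.0273 of the type II level in the controls, 1.13 ± 0.0327 with ATF3 siRNA, 1.08 ± 0.0262 with APOE siRNA and 0.985 ± 0.0348 with CXCL14 siRNA. For CXCL14 siRNA this overall balance overlapped the controls.

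**Figure D3:**
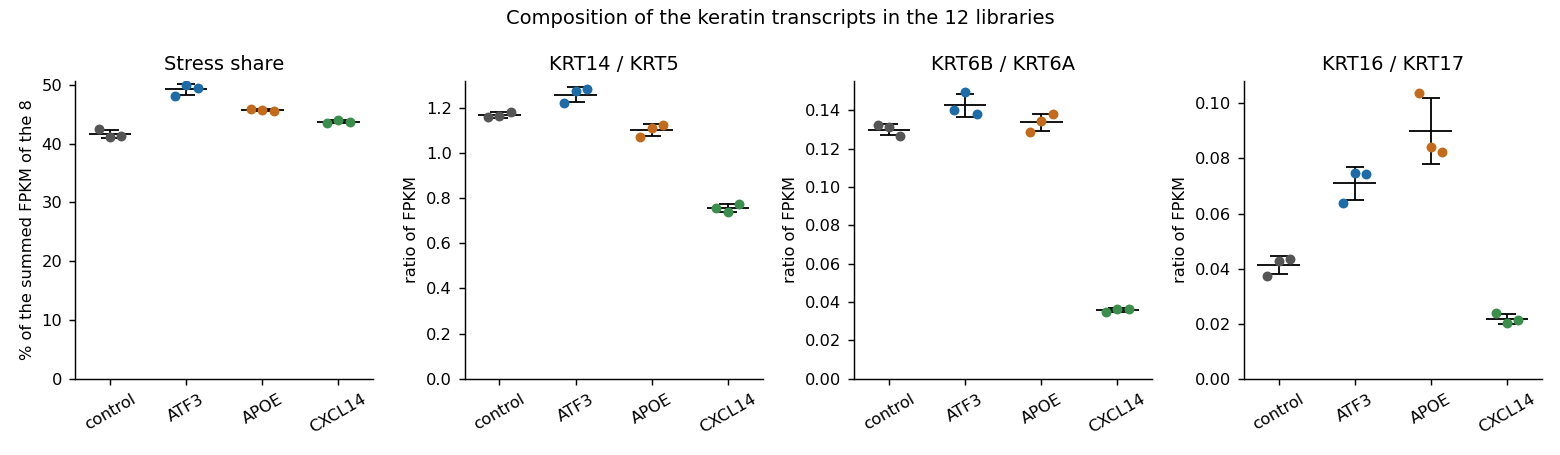
Share of the stress keratins in the summed FPKM of the 8 members (%), and ratios of FPKM for KRT14 to KRT5, KRT6B to KRT6A and KRT16 to KRT17, with a point per library, a bar at the mean and an error bar of 1 SD (n = 3). KRT6B to KRT6A drops from 0.130 to 0.0358 with CXCL14 siRNA, while KRT16 to KRT17 is highest with APOE siRNA.

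The direct comparisons of the knockdowns separated the groups further. With ATF3 siRNA 6 members were lower than with APOE siRNA and 0 higher, where 20.3% of all tested genes were higher and 17.9% lower. The differences were -0.49 ± 0.06 for KRT5, -0.30 ± 0.07 for KRT14, -0.61 ± 0.07 for KRT15, -0.68 ± 0.12 for KRT6C and -0.52 ± 0.12 for KRT16 (edgeR adjusted p from 4.71e-06 to 0.00284). KRT6A was lower by -0.17 ± 0.06 (edgeR adjusted p = 0.0262), a call lost without APOE siRNA library 1 (0.0966), APOE siRNA library 3 (0.0628) or ATF3 siRNA library 1 (0.0947), without a filter (0.0568) and in a fit of only these 2 groups (0.0815). KRT17 (-0.18 ± 0.07, edgeR adjusted p = 0.0719) and KRT6B (-0.08 ± 0.06, 0.327) did not pass. KRT17 passed without ATF3 siRNA library 3 (-0.24, edgeR adjusted p = 0.0236), without a filter (0.0442) and with a stricter one (0.0356).

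Against CXCL14 siRNA all 8 members were higher with ATF3 siRNA, where 28.4% of all tested genes were higher and 25.3% lower. All 8 were also higher with APOE siRNA, where 28.9% of all genes were higher and 26.6% lower. The widest gaps were those of KRT6B, 9.76-fold between ATF3 and CXCL14 siRNA (3.29 ± 0.07, edgeR adjusted p = 1.05e-14) and 10.3-fold between APOE and CXCL14 siRNA (3.37 ± 0.07, 7.65e-15). KRT16 followed with 6.29-fold and 9.01-fold, and KRT6C with 4.45-fold and 7.12-fold. The smallest gaps were those of KRT15 (0.50 ± 0.07, edgeR adjusted p = 2.06e-05) and KRT5 (0.53 ± 0.06, 4.12e-06) between ATF3 and CXCL14 siRNA.

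Pseudogenes of the type I members were counted too. KRT16P6 (ENSG00000226145), a pseudogene on chromosome 17, was counted about as high as KRT16 in the controls, at 162, 173 and 177 CPM. Despite its symbol, its longest transcript was 95.7% identical to that of KRT14 over 1659 aligned bases, and 85.6% identical to that of KRT16 over 1609. To show this, 60 bases of exon 5 are printed from GENCODE release 29, 5′ to 3′, with bases that are not the same in all 3 in capitals. They lie at chr17:41583585-41583644 for KRT14, chr17:41610888-41610947 for KRT16 and chr17:16819292-16819351 for KRT16P6, all on the minus strand. KRT16P6 differs from KRT14 at 3 of these bases and from KRT16 at 21. The stretch was taken because it separates KRT16 from the pseudogene most among gapless coding stretches within a single exon.
KRT14: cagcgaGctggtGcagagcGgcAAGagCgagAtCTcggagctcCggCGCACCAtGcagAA
KRT16: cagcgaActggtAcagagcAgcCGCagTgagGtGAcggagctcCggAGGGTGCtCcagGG
KRT16P6: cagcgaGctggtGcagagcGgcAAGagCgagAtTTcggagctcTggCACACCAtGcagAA

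Of the 50-base stretches of KRT16P6, 7.35% also occur in KRT14 and 0.439% in KRT16, and at 100 bases 0 occur in either. KRT16P6 held 2.35% ± 0.0823 (SD, n = 3) of the KRT14 count in the controls. With ATF3 siRNA it stood at 118, 165 and 148 CPM and did not pass (-0.25 ± 0.10, edgeR adjusted p = 0.0896), while KRT14 and KRT16 both rose. With APOE siRNA it rose to 314, 306 and 283 CPM (0.82 ± 0.10, edgeR adjusted p = 5.46e-06), and with CXCL14 siRNA it fell to 69.3, 61.3 and 58.2 CPM (-1.44 ± 0.10, edgeR adjusted p = 5.87e-09). Over the 12 libraries its centred log2 profile differed from that of KRT14 by a root mean square of 0.34, the smallest among the 8 members, and from that of KRT16 by 0.76. The type II gene KRT6A followed KRT14 closely at 0.39, so the profile does not clearly single out KRT14.

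The count of KRT16 divided by that of KRT16P6 was 1.01 ± 0.105 in the controls, 3.79 ± 0.409 with ATF3 siRNA, 2.58 ± 0.325 with APOE siRNA and 1.38 ± 0.152 with CXCL14 siRNA. Added to the 6 pseudogenes named after it, KRT16 rose by 0.98 with ATF3 siRNA (edgeR adjusted p = 6.96e-06) and by 1.63 with APOE siRNA (4.90e-09), and fell by 1.22 with CXCL14 siRNA (5.54e-08). The rise with ATF3 siRNA was thus 1.64 for the gene and 0.98 for the sum. This sum follows the gene names, although KRT16P6 is closer in sequence to KRT14. It is therefore no check on reads exchanged between KRT16P6 and KRT14, whose sum was not fitted. The other pseudogenes named after KRT16 or KRT17 stood under 5 CPM in every library.

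**Figure D4:**
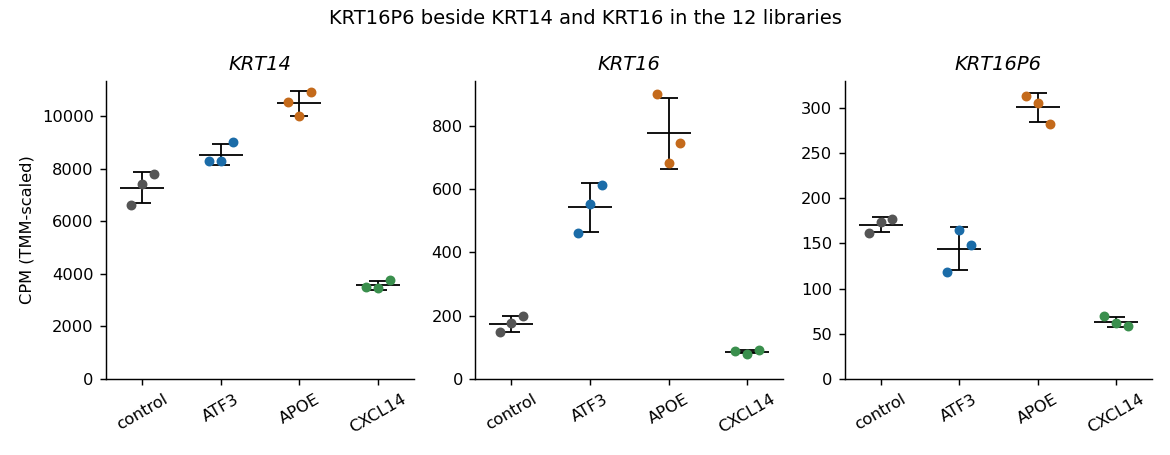
CPM scaled by TMM of KRT14, KRT16 and the pseudogene KRT16P6 in the 12 libraries, with a point per library, a bar at the mean and an error bar of 1 SD (n = 3). With ATF3 siRNA KRT16 stands at 542 CPM on average and KRT16P6 at 144 CPM, while in the controls they stand at 174 and 171 CPM.

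Keratins outside the group moved partly in other directions. Of 9 tested keratins of upper or mucosal epidermis, 5 rose with ATF3 siRNA, 6 with APOE siRNA and 2 with CXCL14 siRNA, where 1 fell. Of all tested genes, 11.2%, 22.3% and 27.4% rose in that order of siRNAs, and 28.4% fell with CXCL14 siRNA. The counts with CXCL14 siRNA were thus not above the background. The median log2 fold changes of the 9 were 1.95, 0.86 and 0.08. KRT80, an epidermal type II keratin, rose from 57.1 ± 4.19 to 404 ± 43.9 CPM with CXCL14 siRNA (2.82 ± 0.10, edgeR adjusted p = 3.53e-12), in the libraries where KRT6B fell most. KRT80 also rose with ATF3 siRNA, to 91.4 ± 9.61 CPM (0.68 ± 0.09, edgeR adjusted p = 0.00012), where KRT6B rose as well. KRT13, the type I keratin of mucosa, rose from 6.16 ± 0.390 to 23.9 ± 0.352 CPM with ATF3 siRNA (1.95 ± 0.12, edgeR adjusted p = 3.26e-08). KRT10, the type I keratin of differentiating epidermis, rose with APOE siRNA (27.0 ± 2.72 to 41.4 ± 1.79 CPM, 0.62 ± 0.11, edgeR adjusted p = 0.000294). Of 3 tested keratins of simple epithelium, 2 fell with ATF3 siRNA and 2 with APOE siRNA, KRT18 in both (-0.32 ± 0.09 and -0.35 ± 0.09, edgeR adjusted p = 0.0177 and 0.00408), and with CXCL14 siRNA KRT8 rose (0.45 ± 0.08, 0.000168). Of 5 tested hair keratins 3 rose with CXCL14 siRNA, KRT81 by 1.08 ± 0.09 (edgeR adjusted p = 3.84e-08), against 3 with ATF3 siRNA, where 1 fell, and 2 with APOE siRNA. With ATF3, APOE and CXCL14 siRNA the medians were -0.28, -0.35 and -0.15 for the simple keratins and 0.49, 0.29 and 0.94 for the hair keratins. With 3 and 5 tested genes these lists are too small to set against the shares of all genes.

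Among 14 linkers and organisers of keratin filaments, 6 rose and 4 fell with ATF3 siRNA and with APOE siRNA alike, and 3 rose and 8 fell with CXCL14 siRNA. In that order of siRNAs 11.2%, 22.3% and 27.4% of all tested genes rose and 9.14%, 22.5% and 28.4% fell. The 4 falls with APOE siRNA and the 3 rises with CXCL14 siRNA are thus near the background share. The medians of the 14 were 0.14, -0.06 and -0.32. PLEC, plectin, which ties keratin to hemidesmosomes, fell from 5427 ± 209 CPM to 3436 ± 297 with APOE siRNA (-0.66 ± 0.09, edgeR adjusted p = 1.20e-05) and to 2923 ± 293 with CXCL14 siRNA (-0.89 ± 0.09, 2.23e-07). The desmosomal plakophilin PKP2 fell with both of these siRNAs (-1.51 ± 0.08 in each, edgeR adjusted p = 1.32e-09 and 3.89e-10). PPL, periplakin, rose with ATF3 siRNA (88.6 ± 5.92 to 228 ± 17.01 CPM, 1.37 ± 0.07, edgeR adjusted p = 5.89e-09). EPPK1, epiplakin, rose with all 3 siRNAs, by 0.61 ± 0.14, 0.94 ± 0.14 and 1.12 ± 0.14 with ATF3, APOE and CXCL14 siRNA (edgeR adjusted p = 0.00565, 3.80e-05 and 3.48e-06).

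Of 33 tested regulators known to act on keratin genes, 13 rose and 2 fell with ATF3 siRNA, 19 rose and 3 fell with APOE siRNA, and 7 rose and 12 fell with CXCL14 siRNA. Against the same shares of all genes, the 2 falls with ATF3 siRNA and the counts with CXCL14 siRNA lie near the background. The medians of 0.05, 0.32 and -0.07 were nearer to those of all genes than the members' were. TP63, the master regulator of stratified epithelium that acts on KRT5 and KRT14, fell from 345 ± 12.3 to 162 ± 11.7 CPM with CXCL14 siRNA (-1.09 ± 0.06, edgeR adjusted p = 6.13e-10). The AP-1 subunits FOSL1 (-1.21 ± 0.08, edgeR adjusted p = 1.56e-09) and JUNB (-1.31 ± 0.09, 3.93e-09) fell there as well. FOSL1 also fell where most members rose, with ATF3 siRNA (-0.29 ± 0.07, edgeR adjusted p = 0.0117) and APOE siRNA (-0.68 ± 0.08, 2.33e-06), while TP63 (0.21 ± 0.06, 0.0111) and JUNB (0.34 ± 0.09, 0.00495) rose with APOE siRNA. GRHL3 and ZNF750, regulators of epidermal differentiation, rose with ATF3 siRNA (0.87 ± 0.08 and 1.60 ± 0.19, edgeR adjusted p = 2.25e-06 and 2.44e-05) and with APOE siRNA (0.95 ± 0.08 and 2.15 ± 0.19, 1.35e-07 and 1.48e-07). The part of any of these regulators in the keratin changes was not tested. The lists overlap, since the 10 keratinocyte markers include TP63 of the regulators and SFN of the linkers. Of these 10 markers 7 fell with CXCL14 siRNA and 1 rose, and their summed level was 11518 to 11822 CPM there against 15831 to 16160 CPM in the controls (the part of this in the keratin changes was not tested). With ATF3 siRNA the sum was 13426 to 14659 CPM, with 4 markers lower and 1 higher, and with APOE siRNA 15531 to 16094 CPM, with 5 higher and 2 lower. Of all tested genes 28.4% fell and 27.4% rose with CXCL14 siRNA, 9.14% and 11.2% with ATF3 siRNA, and 22.5% and 22.3% with APOE siRNA. The 1 higher marker with ATF3 siRNA and the 2 lower ones with APOE siRNA are thus near the background. Single markers of other cells moved too. COL1A1 went from 28.8 ± 4.60 CPM in the controls to 80.3 ± 6.83 with APOE siRNA and 15.2 ± 1.80 with CXCL14 siRNA, and CD14 from 2.28 ± 0.506 to 5.89 ± 0.216 and 1.19 ± 0.197 CPM. DCN, the other tested fibroblast marker, rose with both siRNAs, from 0.102 ± 0.0930 CPM to 0.536 ± 0.146 with APOE siRNA (2.31 ± 0.70, edgeR adjusted p = 0.0134) and 0.637 ± 0.248 with CXCL14 siRNA (2.55 ± 0.67, 0.00417), so the 2 genes went opposite ways in the latter. DCN had only 73 counts over all 12 libraries. Its control mean lay below the 0.135 to 0.191 CPM that 3 counts make, so its changes are uncertain. The 5 fibroblast markers other than COL1A1 and the 4 immune markers other than CD14 stayed under 1 CPM in every library. The part of these markers in the keratin changes was not tested.

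The members whose profiles over the 12 libraries were most alike were KRT14 and KRT6A, a basal and a stress keratin on different chromosomes. Their centred log2 CPM differed by a root mean square of 0.08, where KRT14 itself varied with an SD of 0.59. Among 10150 protein-coding genes that averaged 5 CPM or more, those nearest to KRT14 were THOP1 (0.09) and CPNE1 (0.10), and those nearest to KRT6A were PEX5 (0.08) and HSPD1 (0.11). For KRT6B they were GJB2 (0.12), the gap junction protein connexin 26, and MRPL45 (0.25), and for KRT16 SPRR1B (0.14), a precursor of the cornified envelope, and ADAMTSL4 (0.24). KRT5 was nearest to B4GALT3 (0.06) and STX10 (0.08), KRT15 to PLEKHA1 (0.11) and HES2 (0.12), KRT17 to THBD (0.10) and UNC5B (0.13), and KRT6C to MT1X (0.22) and HR (0.23). The libraries share their groups, so these likenesses rest on 4 group levels and are descriptions.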

How the data were processed

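The authors deposited raw counts and FPKM per gene for 12 libraries. Per the submitters' processing notes, HISAT2 2.0.5, featureCounts 1.5.0-p3 and hg38 were used; the annotation and the strand setting are not given in the sources used here. Counts were filtered with filterByExpr, scaled by TMM and fitted in edgeR 4.0.16 (R 4.3.3) by quasi-likelihood with 1 term per group, with Benjamini-Hochberg adjustment over the 14920 genes of each of 6 comparisons (called under 0.05). Ratios and sums use the deposited FPKM, without a test. Sequences come from the shortest principal transcript of each member in GENCODE release 29, and from the longest transcript for KRT16P6. Counts of 0 allow up to 0.135 to 0.191 CPM (3 counts, counting error only). Members and lists were chosen with earlier results of these data known. Named were the members, the targets, up to 4 called genes per list with the smallest adjusted p (a part is reported here), and the 2 nearest profiles per member. The pseudogene KRT16P6 was singled out after its values were seen.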

Additional observations from a re-analysis of the deposited data

How the results depend on the processing

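The 48 log2 fold changes (8 members in 6 comparisons) were recomputed under DESeq2 size factors, library size alone, TMM without keratins, no filter, a stricter filter, the DESeq2 1.42.0 Wald test, limma 3.58.1 on voom weights or FPKM, only the groups compared, a replicate block, summed paralogs or pseudogenes, and without each library. Of 1140 recomputed values 1125 kept direction and side of the threshold, 10 lost the call, 5 gained it and 0 reversed; the changes fell on KRT14 between ATF3 and control siRNA and on KRT6A, KRT17 and KRT6B between ATF3 and APOE siRNA. KRT6B gained its call only as part of the KRT6 sum (-0.17, edgeR adjusted p = 0.0306). Members called ran from 6 to 7 between ATF3 and control siRNA and from 5 to 7 between ATF3 and APOE siRNA. Library size alone moved the median of all genes by over 0.1 only between ATF3 and CXCL14 siRNA (to -0.10) and APOE and CXCL14 siRNA (to -0.11).

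Replicate numbers were not taken to pair the libraries, since not every pair with the same number correlated above 0.1: deviations correlated at -0.02 to 0.23 for 18 pairs with the same number and at -0.24 to 0.10 for 36 others, and in 27 of 36 cases a library's best match in another group had its own number, a hint from the data and not the design. Between APOE and CXCL14 siRNA all 3 pairs were above it (0.225, 0.104 and 0.234), and there the block changed no call, with 8 members higher. With the replicate block KRT17 between ATF3 and APOE siRNA passed (-0.18, edgeR adjusted p = 0.00999638), and no other member changed its call.

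Rescaling FPKM to the main transcript, an alternative chosen after seeing the data, moved the sums and ratios given here. That transcript is shorter than or as long as the authors' gene length, which raised the sums. The shares and ratios moved because the lengths change unequally, from 3130 to 1517 bases in KRT17 but not at all in KRT6B (2282 bases). The sum of the 8 members became 15556, 20602, 25130.3 and 10479 with control, ATF3, APOE and CXCL14 siRNA, the stress share 42.3%, 51.0%, 47.3% and 45.98%, and type I over type II 1.04, 1.31, 1.22 and 1.11. TMM-scaled counts per kilobase moved none of them by more than 1 SD. Depth limits KRT6C most, at 153 to 233 counts per library with CXCL14 siRNA.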
